A study of Mus musculus with 45 samples.

Results

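The T-box genes Tbx1, Tbx2, Tbx3, Tbx5, Tbx18 and Tbx20 were followed across 6 poly(A) RNA-seq libraries of mouse heart. They are 6 of the 23284 genes listed in every library and were picked by symbol, with no threshold on their values and with earlier results of these data known. The libraries fell into 5 groups by sample title: adult heart with 2 libraries, and 1 library each for banding, sham, the E12.5 embryonic heart, and an E12.5 heart with the label Gata4 KO. The series set out to relate the zinc finger factor Gata4 and histone marks to expression at these stages and to heart function, and its 39 chromatin and input samples were not analysed here. Protocol text shared by all samples names the alleles Gata4fbio (a tagged Gata4), Rosa26BirA, Gata4flox and cTNTcre, a Cre driven by the cardiac troponin T promoter, and does not say which sample carries which. Pooled RNA of primary heart tissue went into each library. The strain, the age of the adult, banding and sham mice, the vessel banded, the time after operation and the part of the heart taken are not given in the sources used here. In banding a constriction is placed around a large artery so that the heart pumps against resistance, and sham is the operation without the band.

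T-box factors bind a short DNA element through a shared domain. Some of them activate and others repress the same chamber genes, and the balance between them divides the embryonic heart into working chamber muscle and slow conducting muscle. Tbx5 and Tbx20 act with Nkx2-5 and Gata4 on chamber genes, and Tbx20 also restrains Tbx2. Tbx2 and Tbx3 are repressors of the chamber programme, Tbx2 in the atrioventricular canal and outflow tract and Tbx3 in the conduction system. Tbx18 marks the epicardium, the outer cell layer of the heart, and the sinus horns at the venous pole. Tbx1 acts in the pharyngeal mesoderm and second heart field, which supply the outflow tract.

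All levels are log2(FPKM + 1), where FPKM divides a gene's fragments by its transcript length and by all mapped reads, so levels can be compared between genes. The libraries held 12086929 to 21056784 mapped reads. Listed genes took 75.6% to 82.2% of them in the adult and E12.5 libraries but 53.9% in sham and 56.5% in banding, so FPKM in those libraries sits lower for most genes. Gata4 goes against 1 label: it stood at 6.13 in the library with the Gata4 KO label and 5.93 in E12.5, with an FPKM ratio of 1.15 (95% counting interval 1.10 to 1.20). A value per gene does not show whether reads of a deleted exon are missing. Cardiomyocyte genes were high in all 6 libraries, with a log2 summed FPKM of 13.28 to 15.16 over 8 genes such as Myh6 and Tnnt2. The 5 lung genes had a log2 summed FPKM of 1.34 in banding and 1.24 in sham and of 0 to 0.19 in the other libraries. The surfactant gene Sftpa1 and the club cell gene Scgb1a1 were at 0 in every library, while the transcription factor Nkx2-1 stood at 1.34 in banding and 1.21 in sham.

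Tbx20 was the highest of the 6 genes in the embryonic heart and stepped down in adult, sham and banding. Its level was 5.52 at E12.5 and 5.10 under the Gata4 KO label, 3.30 and 2.87 in the adult libraries, 1.57 in banding and 1.16 in sham. These levels rested on 6078, 3829, 716, 501, 177 and 96 reads in the same order. No neighbours in that order had overlapping counting intervals, so even the 2 adult libraries differed beyond counting, by 1.40-fold (1.25 to 1.57). In E12.5 Tbx20 ranked 1289 of 17034 genes above 0, higher than 92.4% of them, and in sham it ranked 9914 of 16363, higher than 39.4%.

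Tbx5, mutated in Holt-Oram syndrome and required for the atria, left ventricle and conduction system, was 4.37 in E12.5 and 4.43 in the library with the Gata4 KO label. It was 3.38 and 3.15 in the adult libraries, 2.37 in sham and 1.84 in banding. The E12.5 levels lay above the adult levels, and the adult levels above sham and banding, with overlapping counting intervals only within the E12.5 pair and within the adult pair. Tbx18 was 4.36 in E12.5 and 4.18 in the library with the Gata4 KO label, against 2.04 in banding, 1.68 in sham, and 1.30 and 1.23 in the adult libraries. In Tbx18, unlike in Tbx20 and Tbx5, the adult libraries were the lowest of the 6.

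The order was the other way round for Tbx3 and Tbx2. Tbx3 was lowest at 1.03 in E12.5 and 1.46 in the library with the Gata4 KO label. It stood at 1.84 in banding, 2.11 in sham, and 2.46 and 2.53 in the adult libraries, and only the adult pair and the pair of sham and banding had overlapping counting intervals. Tbx2 was 0.75 in E12.5 and 0.76 in the library with the Gata4 KO label, then 1.31 and 1.67 in the adult libraries, 1.83 in banding and 1.86 in sham. Both E12.5 libraries were below the other 4 for both genes, and for Tbx2 the counting intervals overlapped between all neighbours in the order except across that gap.

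**Figure D1:**
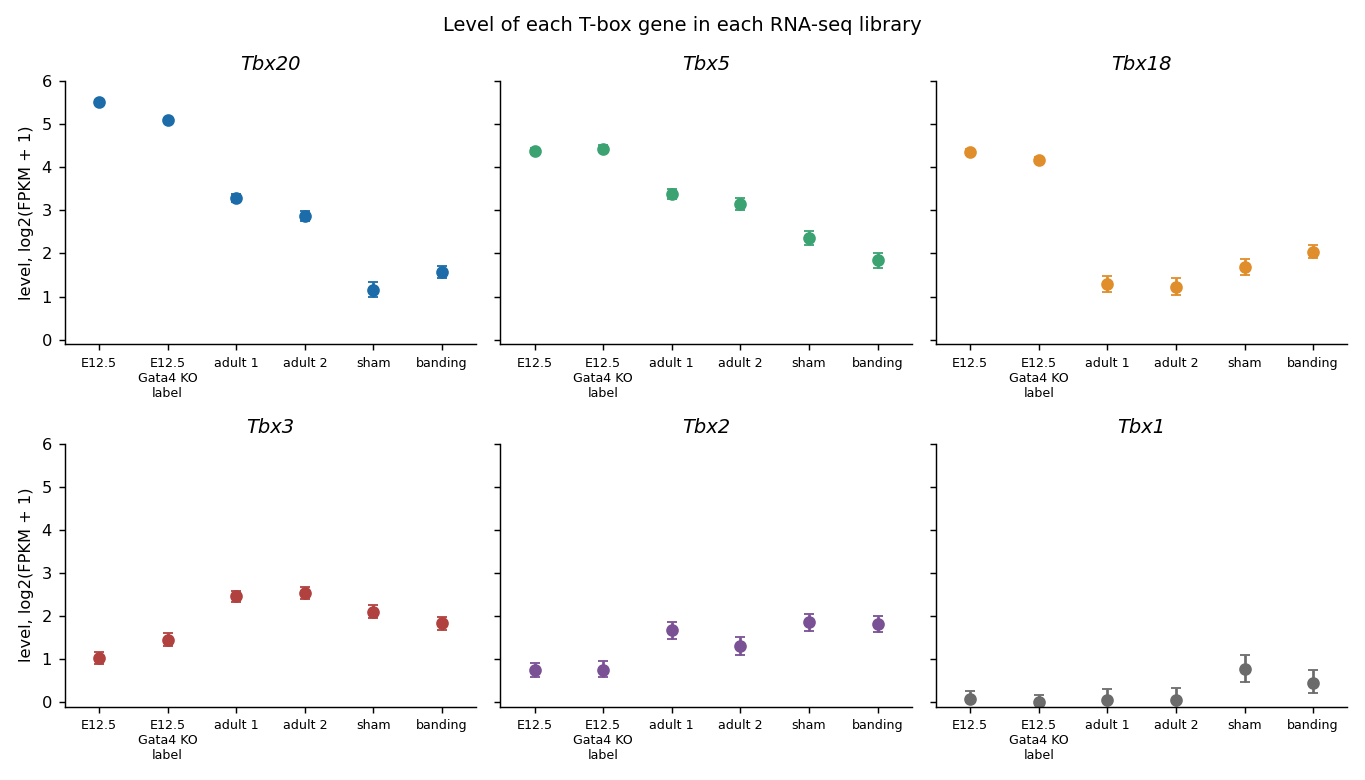
Levels of the 6 T-box genes in log2(FPKM + 1), with 1 panel per gene and 1 point per library. Bars are 95% counting intervals from the recovered reads. Tbx20, Tbx5 and Tbx18 are highest in the 2 E12.5 libraries, Tbx3 and Tbx2 are lowest there, and Tbx1 is highest in sham, at 0.76, and banding, at 0.45.

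Summed over the 6 genes, FPKM was 85.8 in E12.5 and 73.6 in the library with the Gata4 KO label, 26.4 and 21.8 in the adult libraries, 14.2 in sham and 13.1 in banding. The make-up of that sum, which no scaling of whole libraries can alter, moved with the stage. Tbx20 held 52.3% of it in E12.5 (counting interval 51.2% to 53.3%), 33.4% and 28.9% in adult, 15.0% in banding and 8.67% in sham. Tbx3 held 1.21% in E12.5, 17.0% and 21.96% in adult and 23.2% in sham, where its counting interval of 20.5% to 26.3% overlapped that of adult replicate 2. Tbx2 held 0.792% in E12.5, 8.26% and 6.77% in adult and 18.4% in sham (15.6% to 21.7%), above both adult libraries. Tbx18 held 22.7% in E12.5, 5.52% and 6.18% in adult, 15.5% in sham and 23.7% in banding. Tbx5 held 23.0% in E12.5, 35.6% and 36.0% in adult, 29.2% in sham and 19.6% in banding. Its share was thus higher in adult than in E12.5, unlike its level and unlike the shares of Tbx20 and Tbx18. In banding the levels of Tbx18, Tbx5, Tbx3 and Tbx2 ran from 2.04 to 1.83 with overlapping counting intervals between neighbours. In E12.5 Tbx20 stood clear of Tbx5 and Tbx18, and the intervals of those 2 overlapped.

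**Figure D2:**
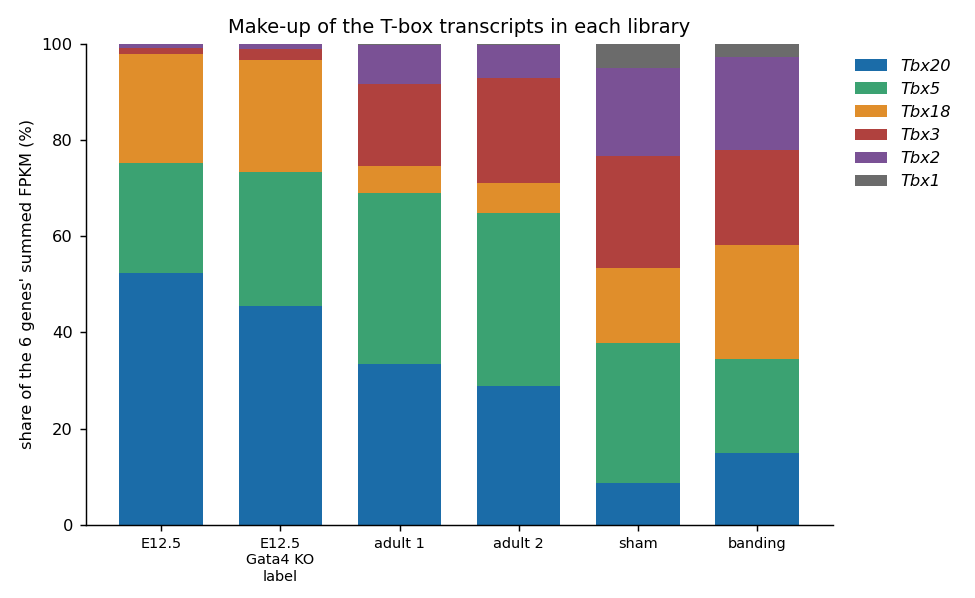
Share of each T-box gene in the summed FPKM of the 6 genes, in percent, with 1 bar per library. Tbx20 takes 52.3% of the E12.5 bar and 8.67% of the sham bar, and the Tbx3 and Tbx2 segments are thin in both E12.5 bars.

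Adult heart was compared with E12.5 heart to ask how expression changes with development. Tbx18 fell by 3.09 in log2(FPKM + 1) (SE 0.12), Tbx20 fell by 2.44 (SE 0.25) and Tbx5 fell by 1.11 (SE 0.15), while Tbx3 rose by 1.47 (SE 0.12). The Benjamini-Hochberg adjusted p from limma was 0.00416 for Tbx18, 0.0108 for Tbx20, 0.0178 for Tbx5 and 0.00812 for Tbx3. Tbx2 differed by 0.74 (SE 0.21) in the same direction as Tbx3 and did not pass, with a limma adjusted p of 0.0680. Tbx1 was too low to be tested. Of the 5 members tested, 1 was called higher and 3 lower, against 71.8% of all 12658 genes tested (23.4% higher and 48.4% lower), so the share called does not set the family apart. As FPKM ratios, Tbx18 was 13.9-fold lower in adult (counting interval 11.8 to 16.4), Tbx20 5.92-fold lower (5.57 to 6.31) and Tbx5 2.28-fold lower (2.10 to 2.48). Tbx3 was 4.47-fold higher (3.65 to 5.53) and Tbx2 2.69-fold higher (1.96 to 3.77).

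The test took its spread from the adult pair alone. The labels do not say whether that pair stems from different animals or RNA pools, so the p-values rest on a spread that may be technical. Adult means over the 2 libraries were 3.08 ± 0.30 for Tbx20, 3.26 ± 0.16 for Tbx5, 1.26 ± 0.05 for Tbx18, 2.50 ± 0.05 for Tbx3 and 1.49 ± 0.26 for Tbx2 (SD, n = 2). The median difference of all genes tested was -0.51, and it was -0.04 after scaling the libraries to a common upper quartile. With that scaling Tbx18 still fell by 2.54 and Tbx20 by 1.87 and Tbx3 rose by 1.73, all called. Tbx5 differed by -0.56 and was no longer called (limma adjusted p = 0.0724, and 0.0172 to 0.0724 over 10 fits), and Tbx2 rose by 0.95 and was called (0.0416, and 0.0416 to 0.147 over 10 fits). By a rule of size, a difference of at least 1 where the higher group reaches 5 FPKM, 3 members were lower in adult, Tbx5, Tbx18 and Tbx20, beside 38.9% of all genes past the rule (27% lower), and Tbx5 left that set under all 3 other scalings.

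**Figure D3:**
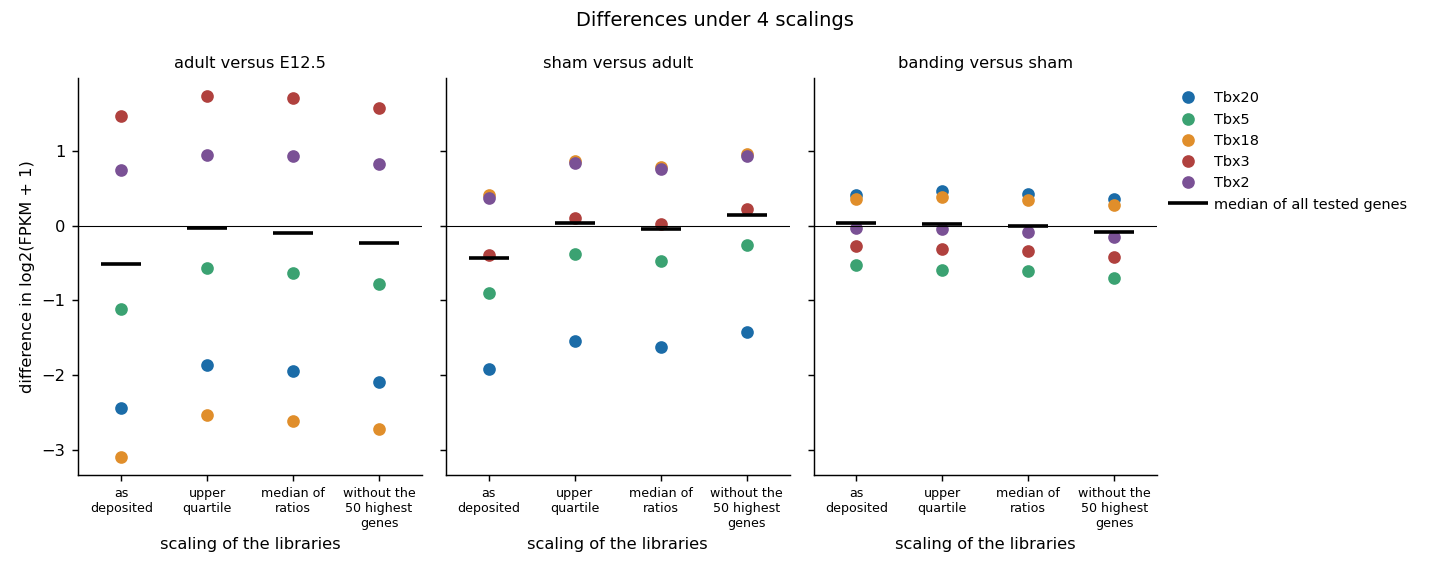
Difference in log2(FPKM + 1) for 5 T-box genes in 3 comparisons under 4 scalings of the libraries, with the median of all tested genes as a bar. Tbx18 and Tbx20 stay below and Tbx3 and Tbx2 above the bar in the comparison of adult with E12.5, and Tbx3 lies on both sides of 0 in that of sham with adult.

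The promoters of Tbx20 and Tbx18, the 2 members that fell furthest, are shown as the 250 bases before the RefSeq start in GRCm38.p6, read 5′ to 3′ on the minus strand. Capitals mark each match, on either strand, to 1 of 7 elements. These are the GC box GGGCGG, the CCAAT box, the cAMP response element (TGACGTCA or else TGACGTGA), the TATA box TATAAA, the NK2 element CAAGTG, the T-box element (GGTGTGA or else GGTGTTA) and the GATA element, searched as AGATAA, or else TGATAA, or else AGATAG, or else TGATAG.

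Tbx20, chr9:24774304-24774553: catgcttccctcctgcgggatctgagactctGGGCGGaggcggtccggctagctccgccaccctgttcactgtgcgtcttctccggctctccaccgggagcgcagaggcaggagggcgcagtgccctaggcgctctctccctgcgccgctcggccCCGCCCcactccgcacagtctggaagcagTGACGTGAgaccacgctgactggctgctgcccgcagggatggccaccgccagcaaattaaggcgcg

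Tbx18, chr9:87731261-87731510: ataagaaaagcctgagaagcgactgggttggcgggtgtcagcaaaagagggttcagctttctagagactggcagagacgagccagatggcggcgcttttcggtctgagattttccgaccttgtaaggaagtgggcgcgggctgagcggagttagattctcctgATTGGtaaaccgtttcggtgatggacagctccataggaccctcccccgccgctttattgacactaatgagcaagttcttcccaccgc

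The Tbx20 window held 2 GC boxes and 1 cAMP response element. At least 1 GC box was found in 32.7% of 32851 windows of this length, and at least 1 cAMP response element in 1.88%. The Tbx18 window held 1 CCAAT box, found in 33.8%. No GATA, T-box, NK2 or TATA match lay in either window, beside 26.5%, 4.62%, 11.6% and 12.4% of all windows, which says only that these letters are not in these 250 bases. GC content was 68.8% in the Tbx20 window and 54% in the Tbx18 window, and the median of all windows was 52.4%. Both genes lie on chromosome 9, with 612 protein-coding genes between them. A window was also at hand for Tbx1, and Tbx2, Tbx3 and Tbx5 were not matched in the promoter table.

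Among genes that work with the T-box factors, the share that fell was near that of all genes. Of 15 tested protein partners, 1 rose and 9 fell in adult by limma at an adjusted p below 0.05, beside 23.4% higher and 48.4% lower among all genes, and the median difference was -0.78 beside -0.51. Nkx2-5, the homeobox partner of Tbx5 and Tbx20, fell by 3.87 (SE 0.07), from 7.62 in E12.5 to 3.76 and 3.74. Gata4 fell by 2.40 (SE 0.28), Gata5 by 2.52 (SE 0.07) and Gata6 by 1.87 (SE 0.08). The histone deacetylase Hdac1 rose by 1.81 (SE 0.10). With upper-quartile scaling 2 partners were called higher and 6 of 14 lower, beside 4316 higher and 4159 lower of 12257 genes.

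Chamber genes on which activators and repressors of the family converge were among the largest differences. Of 15 tested, 3 rose and 9 fell, beside 23.4% and 48.4% of all genes, and the median was -2.39 beside -0.51. Cited1, a transcriptional coactivator, fell by 8.53 (SE 0.11), from 8.79 in E12.5 to 0.31 and 0.22 in adult. Bmp10, a trabecular growth factor, fell by 5.75 (SE 0.17), Gja5, the gap junction connexin 40, by 4.81 (SE 0.20), and Nppa, the atrial natriuretic peptide, by 4.78 (SE 0.14). Id2, a helix-loop-helix inhibitor, fell by 4.53 (SE 0.28). The calcium pump Atp2a2, the potassium channel Kcnj2 and the connexin Gja1 were the 3 that rose. The 9 lower calls held under all 4 scalings in number, and the higher calls became 5. The background moved too: 36.4% of all genes lay above 0 as deposited, and 43.8% to 49.0% under the other scalings.

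Conduction and pacemaker genes, the setting in which Tbx3 is known to act, moved both ways. Of 11 tested, 3 rose and 7 fell, beside 23.4% and 48.4% of all genes, so the share that rose was near the background. With upper-quartile scaling 4 of 9 rose and 2 fell. Calls among all genes were nearly even at that scaling, as given beside the partners, and 49.0% of all genes lay above 0. The calcium channel Cacna1h fell by 3.25 (SE 0.11), the potassium channel subunit Kcne1 by 2.37 (SE 0.14) and the pacemaker channel Hcn4 by 1.31 (SE 0.24), from 2.55 to 1.03 and 1.44. With upper-quartile scaling the Hcn4 difference was -0.85. The related channel Hcn2 rose by 1.75 (SE 0.11) and the G-protein regulator Rgs6 by 1.51 (SE 0.12).

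Cushion, valve and BMP genes, the setting of Tbx2 and Tbx20 in the atrioventricular canal, fell in 10 and rose in 1 of 17 tested, beside 48.4% lower and 23.4% higher among all genes. Under each of the 3 other scalings 9 fell and 3 rose, while 43.8% to 49.0% of all genes lay above 0 there, beside 36.4% as deposited. Bmp7 fell by 5.49 (SE 0.13), the matrix proteoglycan Vcan by 4.01 (SE 0.14), its link protein Hapln1 by 2.50 (SE 0.06), the inhibitory Smad6 by 2.37 (SE 0.21) and Id3 by 2.34 (SE 0.18). Tbx2 did not follow this list, since its level was higher in both adult libraries than in E12.5.

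Epicardial genes fell beside Tbx18. Of 12 tested none rose and 11 fell, beside 23.4% and 48.4% of all genes, and the median was -1.97 beside -0.51. The keratin Krt19 fell by 4.49 (SE 0.14), the uroplakin Upk3b by 3.64 (SE 0.37), the helix-loop-helix factor Tcf21 by 3.13 (SE 0.20) and the keratin Krt18 by 2.46 (SE 0.13). Aldh1a2, the retinaldehyde dehydrogenase of the epicardium, fell by 2.38 (SE 0.23). The log2 summed FPKM of this list was 7.15 in E12.5 and 3.77 and 3.52 in adult, and none of the 12 was at 0 in any library. In bulk tissue fewer cells of a type and less RNA per cell cannot be told apart, and the part of the epicardium in the Tbx18 difference was not tested.

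Genes of the outflow tract and second heart field, the setting of Tbx1, were mostly lower in adult, while Tbx1 was too low to test. Of 9 tested 1 rose and 8 fell, the same numbers under all 4 scalings, beside 23.4% higher and 48.4% lower among all genes as deposited. Hand1 was 4.96 in E12.5 and 0 in both adult libraries. Foxc2 fell by 3.15 (SE 0.08), Foxc1 by 2.88 (SE 0.28) and the ligand Wnt5a by 2.78 (SE 0.12). Retinoic acid genes went both ways, close to all genes: of 11 tested 3 rose and 6 fell, beside 23.4% and 48.4%, with a median of -0.63 beside -0.51. The retinoic acid carrier Crabp1 fell by 2.07 (SE 0.05) and the receptor Rara by 1.86 (SE 0.10), while the dehydrogenase Aldh1a1 rose by 2.36 (SE 0.41).

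Sham was also set beside E12.5, which shares the E12.5 library with the comparison above and has 1 library on each side. No test was run. Tbx20 was 36.3-fold lower in sham by FPKM (counting interval 29.7 to 44.9), Tbx18 8.81-fold lower (7.35 to 10.6) and Tbx5 4.75-fold lower (4.10 to 5.53). Tbx2 was 3.86-fold higher (2.75 to 5.48) and Tbx3 3.19-fold higher (2.52 to 4.05). By the rule of size 3 of 5 members were lower and none higher, beside 45.9% of 12731 genes (39.1% lower and 6.84% higher). With upper-quartile scaling Tbx5, at -0.94, no longer passed and Tbx3, at 1.84, passed as higher. Without the 50 highest genes Tbx3 also passed, at 1.81. As deposited, 1.34% of genes were as far down as Tbx20. The median of all genes was -0.95, and relative to it Tbx20 differed by -3.41, Tbx18 by -1.72, Tbx5 by -1.06, Tbx3 by 2.03 and Tbx2 by 2.06.

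**Figure D4:**
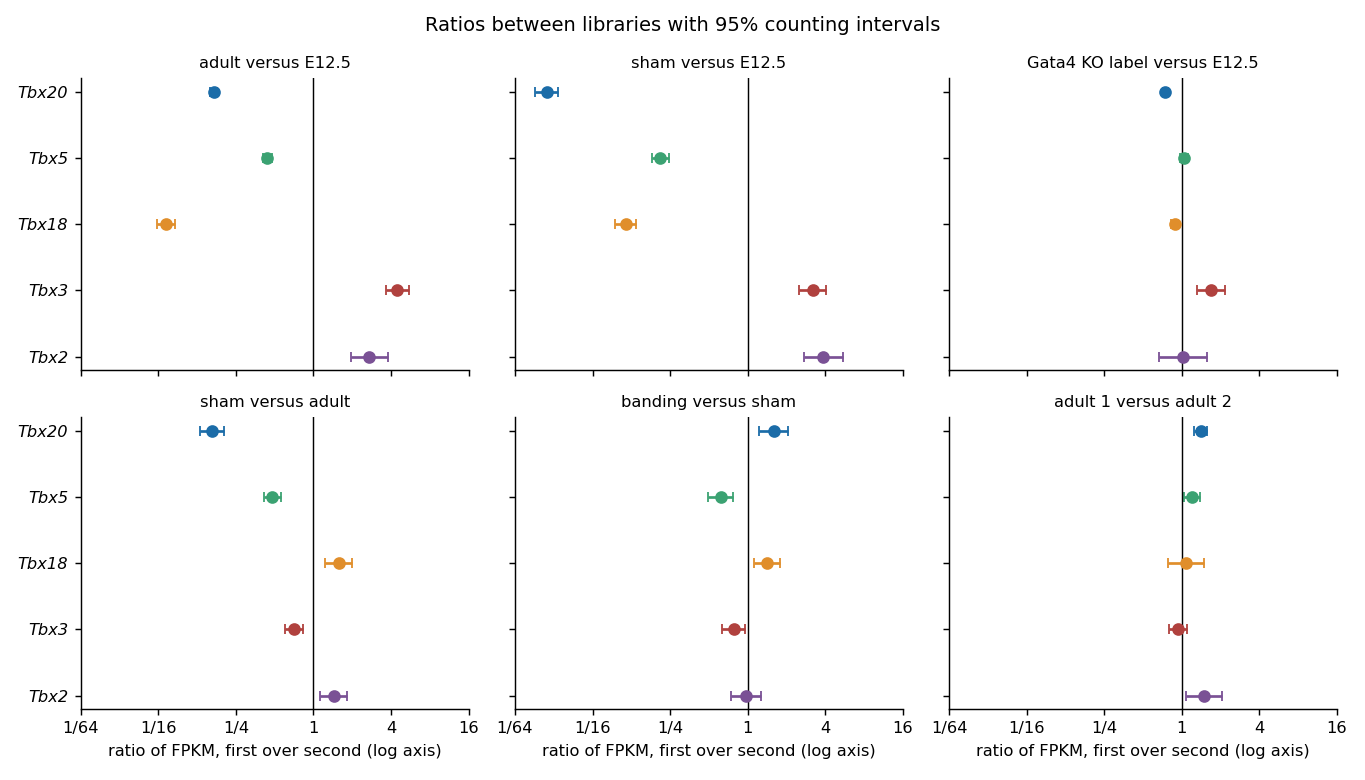
Ratio of FPKM between libraries for 5 T-box genes, on a log axis, with 95% counting intervals as bars and adult reads pooled over the 2 libraries where adult is named. Tbx20 lies farthest left for sham versus E12.5 at 1/36.3, and the panel of the 2 adult libraries shows ratios of up to 1.48 within 1 group.

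Sham and adult hearts, which the labels do not match for age, differed most in Tbx20 among the 5 members tested. It was 6.13-fold lower in sham than in the pooled adult reads (4.98 to 7.63), 7.14-fold lower than in adult replicate 1 and 5.10-fold lower than in replicate 2. Its difference was -1.92 in log2(FPKM + 1), and from -1.42 to -1.62 under the other scalings, so it lay below 0 in each. Tbx5 was 2.08-fold lower (1.78 to 2.44). Tbx18 was 1.58-fold higher (1.24 to 2.00) and Tbx2 1.43-fold higher (1.12 to 1.83). Against adult replicate 1 alone the Tbx2 ratio was 1.20 (0.910 to 1.59), an interval that includes 1. On the log2(FPKM + 1) scale, where the median of all genes was -0.44, Tbx5 differed by -0.90, and by -0.25 to -0.47 under the other scalings. Tbx18 differed by 0.42, and by 0.79 to 0.96 under them, and Tbx2 by 0.37, and by 0.76 to 0.93. Tbx3 differed by -0.39, and by 0.02 to 0.23 under the other scalings, so its direction is not fixed. By the rule of size 1 of 5 members, Tbx20, was lower, beside 25.2% of 11582 genes (22.2% lower and 3.01% higher), and 5.53% of genes were as far down.

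Sham and adult also differed in some markers of atrial muscle, a tissue rich in Tbx5. Of 6 atrial genes tested, 4 lay below 0 and 2 above, and 2 were lower by the rule of size, beside 22.2% of all genes. With upper-quartile scaling 3 lay below 0 and 3 above, with 2 past the rule as lower and 1 as higher. Nppa was 7.70 and 7.49 in adult and 8.28 in sham. The atrial light chain Myl7 was 4.65 and 3.27 in adult, 0.64 in sham and 0.79 in banding, and Myl4 was 6.72 and 6.09 in adult, 1.61 in sham and 1.94 in banding. Over 7 atrial genes without Nppa, the log2 summed FPKM was 7.19 and 6.47 in adult, 3.63 in sham and 3.87 in banding, against 12.54 in both E12.5 libraries. With Nppa it was 8.46 and 8.06 in adult, 8.33 in sham and 12.40 in banding, so the lower sum in sham depends on leaving Nppa out. Sln was at 0 in sham and banding and Bmp10 in banding, while none of the 7 was at 0 in the other libraries. Of all genes 30.8% lay above 0 in sham against adult as deposited, and 51.6% with upper-quartile scaling. Myl3 is in both the ventricular and the cardiomyocyte list. In sham, ventricular genes lay below 0 in 8 of 8, with 4 past the rule, and cardiomyocyte genes in 8 of 8, with 3. Smooth muscle genes did so in 6 of 6, with 3 past it, and endothelial genes in 7 of 8, with 1. With upper-quartile scaling these lists had 8, 4, 5 and 6 genes below 0, with 1, 2, 2 and 0 past the rule as lower. Fibroblast genes lay above 0 in 5 of 6 and epicardial genes in 7 of 9, also with that scaling. The part of the atria or of any other cell type in the Tbx5 and Tbx20 differences was not tested. The operation cannot be told apart from the dissection, the RNA pool or the lower share of reads on listed genes. Of 13 partners 5 were lower by the rule of size, beside 22.2% of all genes, with Hand2 at -2.24, Nkx2-5 at -1.74 and Gata4 at -1.25. With upper-quartile scaling 7 of the 13 lay above 0 and 6 below, 2 were lower by the rule, and Gata4 at -0.73 was not.

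The comparison of banding with sham asks what load on the heart changes. None of the 5 tested members passed the rule of size, beside 1.63% of 11011 genes (1.16% higher and 0.463% lower). The largest difference was in Tbx5, which was 1.62-fold lower in banding (1.30 to 2.02), on 142 reads against 198. Tbx3 was 1.29-fold lower (1.05 to 1.58). Tbx20 was 1.59-fold higher (1.23 to 2.06), on 177 reads against 96, and Tbx18 1.41-fold higher (1.12 to 1.77). Tbx2 was level, with a ratio of 0.969 (0.746 to 1.26). These 4 intervals leave out 1 and cover counting only. They overlap the intervals of the 2 adult libraries, which share a group and differed by 1.40-fold (1.25 to 1.57) in Tbx20, 1.20-fold (1.04 to 1.37) in Tbx5, 1.08-fold (0.785 to 1.49) in Tbx18 and 1.07-fold (0.905 to 1.26) in Tbx3. Of all genes 4.66% were as far down as Tbx5, and 12.3% as far up as Tbx20. All 5 differences kept their direction under the 4 scalings.

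Chamber genes other than Nppa did not follow. Nppa was 12.39 in banding and 8.28 in sham, the only 1 of 12 tested chamber genes past the rule of size. All 6 tested conduction genes were lower in banding and none passed, with Rgs6 the furthest at -0.70. No partner of 13 passed, and Nkx2-5 was furthest at 0.47. Fibroblast genes were higher beside Tbx18 and Tbx20: all 6 lay above 0 and 5 passed, with Col1a1 higher by 2.03, and the log2 summed FPKM of the list was 9.48 in banding and 8.13 in sham. Smooth muscle genes also lay above 0 in 6 of 6, with 0 past the rule. Of 14 cushion, valve and BMP genes 8 lay above 0 and 6 below, and 2 passed as higher, Postn at 3.11 and Tgfb2 at 1.15. Whether any of these cell types has a part in the Tbx18 and Tbx20 differences was not tested.

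The library with the Gata4 KO label was set against E12.5 to ask what depends on Gata4, with the limit that Gata4 reads were not reduced. None of the 4 members tested passed the rule of size, beside 1.43% of 12062 genes (0.929% higher and 0.506% lower), and Tbx2 and Tbx1 were not tested, at under 1 FPKM in both libraries. Tbx20 was 1.34-fold lower (1.29 to 1.40) and Tbx18 1.14-fold lower (1.06 to 1.22) in the library with the Gata4 KO label, while Tbx3 was 1.68-fold higher (1.31 to 2.17). Tbx5, with a ratio of 1.04 (0.973 to 1.12), and Tbx2, with 1.02 (0.666 to 1.56), did not differ beyond counting. Tbx20 and Tbx3 lay among the outer 18.6% and 17.4% of genes in absolute difference, and the adult pair differed by as much in Tbx20.

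Lists of several cell types differed between these 2 libraries. Of all genes 46.4% lay above 0 as deposited, and 43.6% to 58.5% under the other scalings. All 19 tested cushion, valve and BMP genes were higher in the library with the Gata4 KO label, 5 of them past the rule of size, led by Postn at 1.51 and Vcan at 1.23. All 12 epicardial genes were higher, with a median of 0.81 and 1 past the rule, although Tbx18 itself was lower. Embryonic globins passed the rule in 3 of 3, with Hbb-bh1 higher by 1.76 and a log2 summed FPKM of 15.98 against 14.37. All 6 fibroblast genes were higher, with a median of 0.95 and 2 past the rule, Col3a1 at 1.36 and Col1a1 at 1.08. Smooth muscle genes passed as higher in 3 of 4, led by Acta2 at 1.27, and endothelial genes lay above 0 in 7 of 8 with none past the rule. Cardiomyocyte genes lay below 0 in 6 of 8, led by Tnni3 at -2.15. Ventricular genes lay below 0 in 7 of 8, with Kcne1 at -1.35 and the repressor Hey2 at -1.01 past the rule. The pacemaker channel Hcn4 was higher by 1.21 beside Tbx3, but of 9 tested conduction and pacemaker genes 3 lay above 0 and 6 below. In that list Hcn4 passed the rule as higher and Kcne1, which it shares with the ventricular list, as lower. What these cell markers contribute to the Tbx20, Tbx18 and Tbx3 differences was not tested.

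Tbx1 was close to the limit of detection. It had 1 read in each adult library, 2 at E12.5, 0 under the Gata4 KO label, 9 in banding and 15 in sham, at levels of 0.06, 0.06, 0.08, 0, 0.45 and 0.76. Against the 2 pooled adult reads, sham had an FPKM ratio of 15.5 with a counting interval of 3.60 to 140, so its size is not fixed. Banding and sham did not differ beyond counting, with a ratio of 0.517 (0.200 to 1.26). The predicted noncoding gene Gm35369 overlaps Tbx1 in RefSeq, as Tbx3os1 overlaps Tbx3 and Gm5563 overlaps Tbx5. None of the 3 is listed in the files. The overlap is of whole gene spans, and exons were not compared. As strand is not stated for the counting, reads of these pairs may not be separable.

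Of the 11 other T-box genes listed, Mga, a T-box and helix-loop-helix repressor of Myc targets, was the only one above 1 FPKM in every library. It was 3.10 and 3.15 in adult, 3.01 at E12.5, 3.02 under the Gata4 KO label, and 2.78 in both banding and sham, with no call in adult (difference 0.11, SE 0.11, limma adjusted p = 0.416), though it was called higher with upper-quartile and with median-of-ratios scaling. Tbx6, a factor of the presomitic mesoderm, ranged from 0.19 to 1.17. Tbx4, which lies next to Tbx2 on chromosome 11 with 0 protein-coding genes between, had 8 reads in E12.5, 1 in the library with the Gata4 KO label and 0 elsewhere, while Tbx2 had 51 or more in 5 of the libraries and 44 in the library with the Gata4 KO label. Tbx3 and Tbx5 are likewise neighbours on chromosome 5, and their levels moved in opposite directions between E12.5 and adult. Tbx10, Tbx15, Tbx21, Tbx22, Eomes, Tbr1 and T stood at or below 0.26, and Tbx19 was at 0 in all 6.

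Genes with the most similar pattern were found by Pearson's r of log2(FPKM + 1) over the 6 libraries, among 8709 genes of at least 5 FPKM in 1 library. The points share their libraries and depth, and the E12.5 pair sits apart from the rest, so the measure is a description. The 3 closest genes of each member reached an r of 0.98 to 1.00. Closest to Tbx20 were Timm8b, Bzw2 and Gstp1, and 1589 genes reached an r of 0.95. For Tbx5 they were Abl2, Actr8 and Rbm7, with 1153 genes at that r, and for Tbx18 Arf3, Arhgap11a and Cdc7, with 1601. Tbx3 and Tbx2 had fewer such genes. Ablim1, Kcna5 and Ggct came first for Tbx3, with 187 genes, and Cldn5, Chd2 and Mlxipl for Tbx2, with 129. Gon4l, Luc7l and Rasgrp2 came first for Tbx1, with 21, and rest on its few reads. Between members, r was 0.97 for Tbx5 with Tbx20 and -0.95 for Tbx3 with Tbx18.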

How the data were processed

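Of 45 samples, 6 RNA-seq libraries were used, and the 39 chromatin and input samples were not analysed here. The values deposited by the authors are log2(FPKM + 1) per gene symbol, a scale read from the values and not named in the file headers. Per the submitters' processing notes, the build is mm9 and the tools named, with no role given, include TopHat 1.4 and HTSeq 0.5.3.

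Whole reads were recovered from the steps of low values for 99.99% of 98043 values above 0, taken as whole within 1e-06 of a read, widened in proportion for high counts. FPKM ratios carry exact conditional binomial 95% intervals, level intervals come from the same reads, and intervals of shares use a normal approximation on the log odds. All cover counting error only, since reads carry no molecular identifiers.

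The contrast of adult and E12.5 was fitted in limma 3.58.1 (R 4.3.3), moderated along the mean-variance trend, with calls at a Benjamini-Hochberg adjusted p of 0.05, over 12658 genes that reached 1 FPKM in any of the 3 libraries. With 1 residual degree of freedom, the spread of the single E12.5 library is taken to equal that of the adult pair. The other comparisons were described without a test or p-value. A rule of size asked for a difference of 1 and 5 FPKM in the higher group. The fit was also run on simulated data. All 3 simulated libraries took their noise from the adult pair, so that run cannot check the spread assumed for E12.5.

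The members and 19 gene lists were chosen with earlier results of these data known. Named genes were the members, all other T-box genes, up to 5 of the largest differences called in each list (the largest one where none was called) and the 3 genes most like each member. Some genes that this rule names are not reported here by name and stay in the counts of their lists. Alternatives were the pseudocount (0.1, 0.5), filters, 3 scalings, the trend, other libraries in the fit and each adult library left out. RefSeq tables of GRCm38 gave gene neighbours and promoters.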

Additional observations from a re-analysis of the deposited data

How the results depend on the processing

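No alternative reversed a called difference. In the limma comparison of adult with E12.5 the count of members called was 4 and stayed within 1.5 times of it under all 9 alternatives, with Tbx5 lost and Tbx2 gained as stated above. Adjusted p over 10 fits ran from 0.00365 to 0.0149 for Tbx18, 0.0108 to 0.0397 for Tbx20 and 0.00510 to 0.0228 for Tbx3. By the rule of size, sham against adult had 1 member, and 2 with a pseudocount of 0.1, where Tbx5 joined Tbx20. Leaving out 1 adult library gave 1 to 2, with 2 without replicate 2. Sham against E12.5 had 3 members, and 5 with a minimum of 1 FPKM, where Tbx2 and Tbx3 joined as higher. Leaving out 1 adult library gave 2 to 3 members for adult against E12.5, with Tbx5 lost without replicate 2. Among values of single members and counts over all genes, 271 stayed, 99 moved, 3 passed the threshold and 2 no longer did. A member's difference moved if it shifted by more than the adult SD or, without adult, its counting error. A count over all genes moved if it changed by more than 1.5 times. Over 30 differences of a member, 28 kept their sign, the exceptions being Tbx1 in adult against E12.5 and Tbx3 in sham against adult.

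Scaling moved the split of all genes past the rule of size. Adult against E12.5 had 1499 higher and 3421 lower as deposited, and 2282 and 2069 at a common upper quartile. Sham against adult had 349 and 2569, and 1150 and 1306. Sham against E12.5 had 871 and 4976, and 2282 and 2224. Banding against sham had 128 and 51, and 114 and 118 without the 50 highest genes, and the library with the Gata4 KO label against E12.5 had 112 and 61, and 121 and 40 without them.

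No paired analysis was possible because only the adult group has more than 1 library and no group shares 2 replicate numbers with it. Depth limits Tbx1, with at most 15 reads, and Tbx2, with 44 to 127.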

Other observations

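Lists of other cell types did not share 1 direction between E12.5 and adult. Over all genes tested, 23.4% rose and 48.4% fell by limma, and the counts of each list are to be read beside these shares. Of 8 endothelial genes 4 rose and 3 fell, with the receptor Flt1 up by 2.88 and the natriuretic peptide receptor Npr3, a marker of endocardium, at -2.39. Of 6 smooth muscle genes 3 rose and 2 fell, with the pericyte gene Rgs5 up by 6.21 and Cnn1 at -4.31. Of 6 fibroblast genes 2 rose and 3 fell, with Dcn up by 2.10 and Col1a1 at -1.96. Ventricular genes gave 1 higher and 4 lower of 8, with the repressor Hey2 at -3.76 and Pln, which restrains the calcium pump, up by 2.89. Cardiomyocyte genes rose in 6 of 8 and fell in none, led by Myh6 at 5.52. Atrial genes fell in 6 of 8 and rose in 1, led by Myl7 at -7.34, and Bmp10 and Nppa of this list also counted as chamber genes. Embryonic globins fell in 3 of 3, and the skeletal light chain Mylpf was at -3.01. Of the neuronal list Stmn2 rose by 1.02, and no gene of the lung or T and natural killer cell lists reached the filter.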
